A study of Mus musculus with 2 samples.

Results

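The genes described here are 9 genes of the glucocorticoid and fasting response, followed through the gonadal fat pad, the white fat depot next to the gonads. They were chosen by name and matched by Ensembl identifier: the receptor gene Nr3c1, the hormone-activating enzyme gene Hsd11b1, the receptor targets Fkbp5, Tsc22d3, Zbtb16 and Sgk1, and the fuel-use genes Pck1, Pdk4 and Txnip. All 9 were found among 43346 Ensembl genes, with 52 of 103639 transcripts. Polyadenylated RNA over 200 nt came from 8-week-old adult C57BL/6J mice, pooled males and females of the same litters, with no allele or treatment named. There was 1 group of 2 libraries, biological replicates 1 and 2, each from its own biosample and both under 1 donor identifier, so any difference between them measures only the spread between these samples. The health state is given as unknown, and no source used here names the feeding state or the hour of collection, on which these genes are known to depend. With no second condition no difference could be tested, and every comparison below is a description of 2 libraries.

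Glucocorticoids are steroid hormones of the adrenal cortex that rise with stress and fasting and follow a daily rhythm. Their receptor waits in the cytoplasm in a chaperone complex with HSP90, and on binding hormone it moves to the nucleus, where it binds glucocorticoid response elements and changes transcription. In fat, the hormone also acts through local conversion of inactive 11-keto steroid to active hormone. Fasting shifts fat cells from storing glucose-derived carbon towards releasing fatty acids, and insulin opposes this shift.

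Expected counts, the estimated number of fragments per gene, summed to 48206393 in replicate 1 and 55138711 in replicate 2. The 9 genes together held 0.191% and 0.171% of the fragments of all genes. Levels are in TPM, a share of all transcripts that takes length into account so that genes can be compared, with replicate 1 named before replicate 2. All 10 fat cell markers and all 12 markers of the epididymis, the sperm duct beside the male pad, stood at 1 TPM or more in both libraries. Summed fat cell marker levels were 15618 and 14589 TPM, and summed epididymis marker levels were 42255 and 29446 TPM. In bulk tissue, fewer cells of a type and less RNA per cell cannot be told apart, and the part of tissue makeup in the results below was not tested.

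All 9 genes were at 1 TPM or more in both libraries, and they spanned from Pdk4 at a mean of 14.9 TPM to Txnip at a mean of 628 TPM. Txnip was the highest in each library, above 98.6% of the expressed genes (those at 1 TPM or more in both libraries) by mean level. In ascending order of the mean stood Pdk4, Zbtb16, Nr3c1, Sgk1, Tsc22d3, Hsd11b1, Fkbp5, Pck1 and Txnip. The ranges of neighbouring genes overlapped from Pdk4 to Nr3c1 and again from Tsc22d3 to Pck1, so the order inside these runs is not settled by 2 libraries. The range of Sgk1 stood clear of both neighbours, and that of Txnip of the gene below it. Pck1 held position 8 of the ascending order in replicate 1 and position 6 in replicate 2, while Hsd11b1 held positions 5 and 8.

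**Figure D1:**
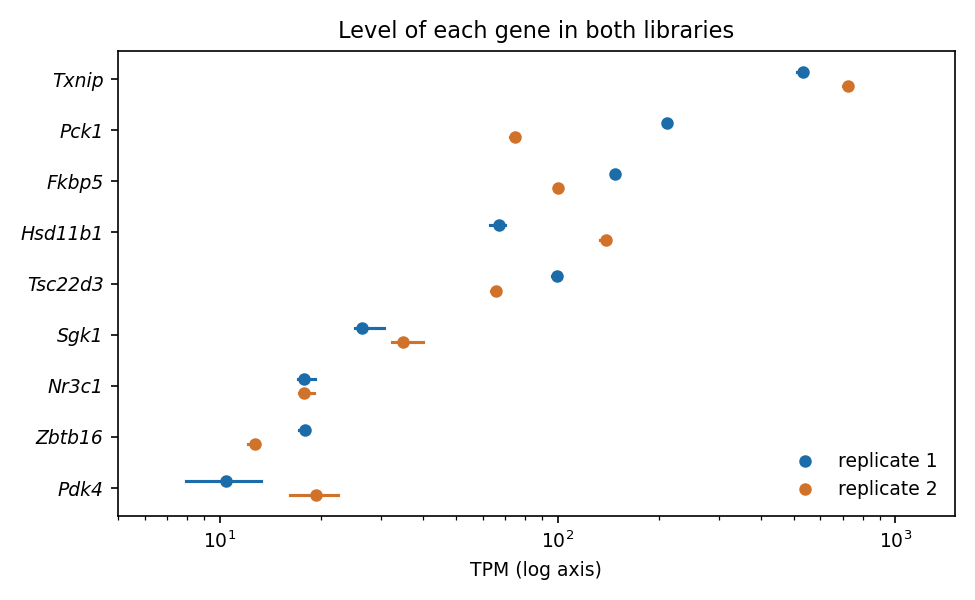
Level of each of the 9 genes (TPM, log axis) in replicate 1 and replicate 2; points are the deposited TPM and bars the deposited interval bounds within each library. Pck1 and Hsd11b1 lie farthest apart, at 211 and 74.9 TPM and at 67.05 and 138.9 TPM, and Nr3c1 is at 17.7 TPM in both libraries.

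The receptor gene Nr3c1, on the minus strand of chromosome 18 (39410545 to 39519421, mm10), was at 17.7 TPM in both libraries, from 3445 and 4372 fragments. Its level was the closest between the libraries of all 9 genes by TPM, and it was above 57.4% of expressed genes. The deposited bounds, which measure error within a library, ran from 17.1 to 19.1 TPM and from 17.1 to 19.0 TPM. The coding form Nr3c1-204 carried 71.6% and 80.4% of the TPM. Nr3c1-208, a coding model with an incomplete 3′ end by annotation, carried 16.75% and 10.7%. The mineralocorticoid receptor gene Nr3c2, whose product also binds glucocorticoids, was lower, at 4.21 and 3.28 TPM, so that Nr3c1 stood 4.20 and 5.41 times above it. The list of 16 receptor and chaperone genes was expressed in full, led by the chaperone genes Hspa8 at 1612 and 1877 TPM and Hsp90ab1 at 492.7 and 392.3 TPM, with Fkbp4, the co-chaperone that promotes transport of the receptor, at 183.0 and 121.9 TPM.

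Hsd11b1 encodes the enzyme that turns the inactive 11-keto steroid into active glucocorticoid inside the cell. The gene lies on the minus strand of chromosome 1 (193221634 to 193264075, mm10) and stood at 67.05 TPM in replicate 1 and 138.9 TPM in replicate 2, from 2598 and 6161 fragments. Replicate 2 was thus 2.07 times higher, and the deposited bounds of 63.3 to 69.7 and 133 to 142 TPM did not overlap. By share of fragments, which needs no length, the ratio was 2.06 with an exact 95% binomial interval of 1.97 to 2.16 that covers counting error only. The coding form Hsd11b1-203 was the largest in both libraries, at 52.1 and 91.85 TPM. Its 262 codons are the last 262 of the 292 of Hsd11b1-201, which was at 7.34 and 10.3 TPM. Hsd11b1-202, a coding model with an incomplete 3′ end by annotation that starts 932 nt upstream of Hsd11b1-201, differed most, at 5.54 TPM (deposited bounds 1.15 to 9.44) and 33.4 TPM (26.4 to 39.7), or 8.26% and 24.0% of the gene.

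The partner enzymes were closer between the libraries. H6pd, which supplies the reduced cofactor that drives the activating direction, was at 105.6 and 108.0 TPM. Hsd11b2, the enzyme of the opposite, inactivating reaction, was at 1.5 and 1.06 TPM from 91 and 80 fragments. Hsd11b1 therefore stood 44.7 and 131 times above Hsd11b2, and below H6pd in replicate 1 but above it in replicate 2. Of the 10 genes of hormone conversion and transport, 6 were expressed. Srd5a1, a steroid 5-alpha reductase that also clears glucocorticoids, was at 12.2 and 10.5 TPM. Among genes of adrenal steroid synthesis, Cyp11b1 had 0 fragments in both libraries, where a count of 0 allows up to 3, Cyp21a1 was at 0.24 and 0.22 TPM, and Cyp11a1 was at 0.90 and 0.24 TPM from 59 and 22 fragments. Serpina6, which encodes the plasma carrier of the hormone, was at 0.17 and 0.050 TPM from 9 and 3 fragments.

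Fkbp5 encodes FKBP51, a co-chaperone that lowers the receptor's affinity for hormone and is itself induced by it, which closes a feedback loop. The gene (chromosome 17, 28399094 to 28517527, minus strand, mm10) was at 147.8 TPM in replicate 1 and 100.3 TPM in replicate 2, from 18289 and 15440 fragments. A single coding form, Fkbp5-201, carried 98.4% and 98.2% of it. The forms that start 31375 nt farther upstream stayed low, Fkbp5-202 with 1.19 and 0.96 TPM and Fkbp5-206 with 0.080 and 0.26 TPM. Fkbp4, its paralogue with the opposite effect on the receptor, stood just above Fkbp5 at a ratio of 1.24 and 1.22, so the pair kept nearly the same proportion in both libraries.

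Tsc22d3 encodes GILZ, the glucocorticoid-induced leucine zipper, an anti-inflammatory target of the receptor that restrains fat cell formation. The gene (chromosome X, 140539528 to 140600659, minus strand, mm10) was at 99.6 TPM in replicate 1 and 65.8 TPM in replicate 2, from 6298 and 5145 fragments. The short coding form Tsc22d3-201, of 137 codons, carried 83.0% and 82.2% of the TPM, at 82.7 and 54.1 TPM. The long form Tsc22d3-203, of 201 codons and starting 57472 nt farther upstream, carried 14.6% and 15.9% of it, at 14.5 and 10.45 TPM. Both forms were thus lower in replicate 2, and the mix of forms differed little. The forms share the last 293 coding bases and differ before that, so their proteins begin differently. The first 60 coding bases of each, with the start codon in capitals, are shown because they tell the short and the long GILZ apart (GENCODE M21 transcripts):
Tsc22d3-201: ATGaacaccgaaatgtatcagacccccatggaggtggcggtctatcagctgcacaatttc
Tsc22d3-203: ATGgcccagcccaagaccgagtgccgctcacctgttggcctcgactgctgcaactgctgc

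Zbtb16 encodes PLZF, a zinc finger transcription factor that is induced by glucocorticoids in many cell types. The gene (chromosome 9, 48654297 to 48836222, minus strand, mm10) was at 17.9 TPM in replicate 1 and 12.7 TPM in replicate 2, from 3264 and 2880 fragments. All of it lay on 1 transcript in the deposited tables, Zbtb16-201, so its ratio does not depend on the split among forms. Fkbp5, Tsc22d3 and Zbtb16 were each higher in replicate 1, by 1.47, 1.51 and 1.41 times on the TPM scale.

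Sgk1, which encodes a serum- and glucocorticoid-regulated kinase acting on ion channels and on FOXO factors, went the other way. The gene (chromosome 10, 21882184 to 21999903, plus strand, mm10) was at 26.4 TPM in replicate 1 and 34.9 TPM in replicate 2, from 1846 and 2981 fragments. It has 13 transcripts in the tables, 4 of them with no fragment in either library. Sgk1-201 led with 16.3 and 22.7 TPM, or 61.7% and 64.9% of the gene. Sgk1-202, which starts 776 nt upstream of it, was next among coding forms at 4.53 and 5.04 TPM, or 17.2% and 14.4%. None of the 7 forms that start farther upstream passed 0.35 TPM in either library. Downstream of the main start, the retained-intron form Sgk1-208 was at 3.03 and 1.17 TPM and Sgk1-209 at 1.30 and 4.53 TPM, from at most 48.25 fragments each. The paralogues were lower, Sgk3 at 4.13 and 3.96 TPM and Sgk2 at 0.080 and 0.090 TPM.

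The 2 Sgk1 starts in use have different flanks, and the sequences before them are shown because 1 holds a complete glucocorticoid response element. The motif searched was AGAACA, any 3 bases, then TGTTCT, on both strands, in RefSeq windows from 250 bases before to 50 after each start (GRCm38.p6, the build of the tables). Of 32851 windows, 3 held it (0.00913%), those of Sgk1, Acnat2 and Gm35041. In Sgk1 it lay at chr10:21993701-21993715, 189 to 175 bases before the start of Sgk1-202 and 965 to 951 bases before that of Sgk1-201. A match is a description of letters and not evidence that the receptor binds there. The half-site TGTTCT alone was common, in 19% of windows. The full element contains it on each strand, and the window of Sgk1-202 held it once more, 242 bases before the start. The TATA motif TATAAA was in 13.6% of windows. In the sequences below, on the plus strand of mm10, capitals mark the full element before Sgk1-202 (chr10:21993640-21993759) and the TATA motif before Sgk1-201 (chr10:21994546-21994665):
Sgk1-202 upstream: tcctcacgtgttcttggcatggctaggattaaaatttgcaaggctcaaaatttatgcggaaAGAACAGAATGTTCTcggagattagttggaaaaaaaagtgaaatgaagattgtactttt
Sgk1-201 upstream: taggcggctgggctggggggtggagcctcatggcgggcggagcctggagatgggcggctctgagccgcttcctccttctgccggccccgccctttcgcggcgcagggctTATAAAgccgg

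The starts also change the protein. Sgk1-201 and Sgk1-202 share the last 1218 coding bases, including the kinase domain, and begin with 25 and 39 codons of their own. The first 60 coding bases, start codon in capitals, show the 2 beginnings:
Sgk1-201: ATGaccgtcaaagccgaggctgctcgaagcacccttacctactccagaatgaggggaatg
Sgk1-202: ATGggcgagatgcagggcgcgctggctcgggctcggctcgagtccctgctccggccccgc

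**Figure D2:**
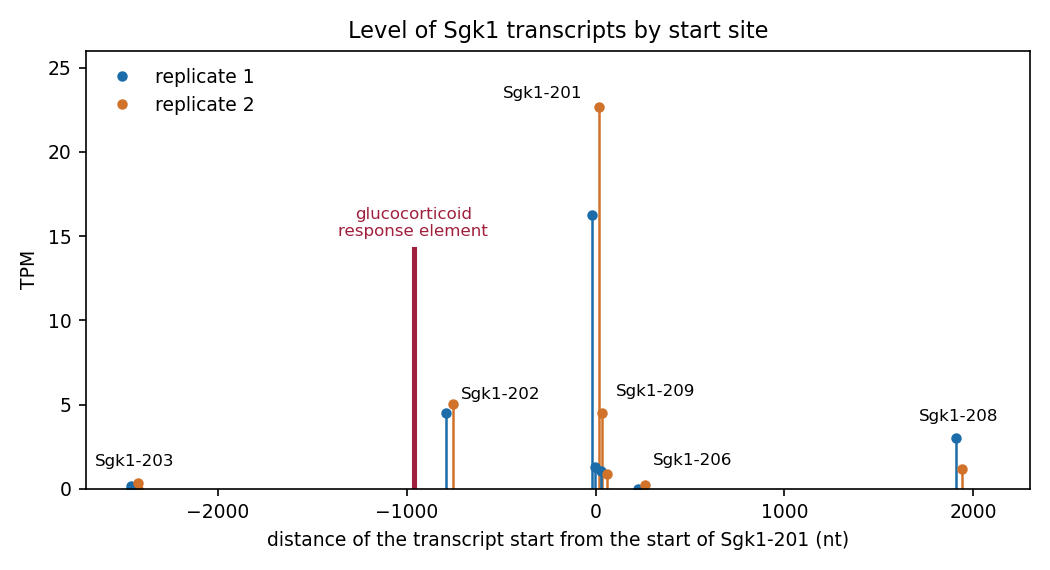
TPM of each Sgk1 transcript against the distance of its annotated start from that of Sgk1-201 (nt), for starts within 3000 nt; the points of replicate 1 and replicate 2 are drawn slightly apart, the points at Sgk1-203 include Sgk1-212 at the same start, and the vertical bar marks the glucocorticoid response element. Sgk1-201 carries 16.3 and 22.7 TPM, and Sgk1-202, the first start after the element, carries 4.53 and 5.04 TPM.

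Pck1, the cytosolic phosphoenolpyruvate carboxykinase, feeds glycerol synthesis from pyruvate in fat cells, which re-esterifies fatty acids during fasting, and insulin is known to repress it there. It was the member farthest apart between the libraries. The gene (chromosome 2, 173153048 to 173159273, plus strand, mm10) was at 211 TPM in replicate 1 and 74.9 TPM in replicate 2, from 18348 and 8041 fragments, for a mean of 143 ± 96.4 TPM (SD, n = 2). Replicate 1 was 2.82 times higher by TPM and 2.62 times by share of fragments (exact 95% binomial interval 2.55 to 2.69, counting error only). The deposited bounds, 206 to 212 and 72.4 to 76.1 TPM, did not overlap. The coding form Pck1-201 held 89.8% and 88.5%, and each of the 4 Pck1 transcripts was lower in replicate 2. The mitochondrial paralogue Pck2 was at 22.0 and 21.7 TPM, so Pck1 was 9.60 times Pck2 in replicate 1 and 3.45 times in replicate 2.

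All 10 genes of the list for glycerol supply were expressed. Of these only Pck1, itself a member, was over 2-fold apart, beside 7.77% of all genes with enough counts. The list is too short to set against that share. Mdh2, a malate dehydrogenase, was at 394.8 and 428.0 TPM, Gpd1, which makes glycerol phosphate from a glycolytic intermediate, at 282.8 and 387.5 TPM, and Got2, an aspartate transaminase, at 360.2 and 258.5 TPM. Pck1 stood just under Pcx, the pyruvate carboxylase gene at 213.05 and 189.3 TPM, in replicate 1 and far below it in replicate 2. The proximal Pck1 promoter is shown because it holds the cAMP response element form TTACGTCA, through which cAMP signalling is known to raise Pck1 in fasting; 0.499% of the 32851 windows held these letters on either strand. Capitals mark it in chr2:173152923-173153042 (plus strand, mm10), 93 bases before the RefSeq start:
Pck1 upstream: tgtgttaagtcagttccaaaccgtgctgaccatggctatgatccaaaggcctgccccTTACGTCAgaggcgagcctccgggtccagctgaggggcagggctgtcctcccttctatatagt

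Pdk4, pyruvate dehydrogenase kinase 4, turns off pyruvate dehydrogenase and is a classic fasting gene. The gene (chromosome 6, 5483351 to 5496309, minus strand, mm10) was at 10.5 TPM in replicate 1 and 19.25 TPM in replicate 2, on 570 and 918 fragments, fewer than any other member. Most of that TPM was not on the coding form, though by fragments the coding form held 92.1% and 86.6%. The retained-intron transcript Pdk4-202, of 412 nt, carried 58.8% and 72.7% of the TPM from 44.9 and 122.6 fragments over an effective length of 195.6 and 188.6 nt. The coding form Pdk4-201, of 412 codons, held 525.1 and 795.4 fragments and came to 4.31 and 5.25 TPM. The gene ratio of 1.84 thus became 1.22 on the coding form and 1.40 by share of fragments (interval 1.26 to 1.56).

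Among the 4 kinases of pyruvate dehydrogenase, Pdk4 was not the leading one. Pdk2 was highest at 167.5 and 108.5 TPM, 16.0 and 5.63 times the Pdk4 gene level, with Pdk1 at 31.05 and 21.4 TPM and Pdk3 at 12.9 and 11.9 TPM. None of the 13 genes of the pyruvate dehydrogenase list was over 2-fold apart, beside 7.77% of all genes with enough counts. The pyruvate carrier genes stood high, Mpc1 with 257.3 and 408.1 TPM and Mpc2 with 107.9 and 122.7 TPM.

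Txnip encodes the thioredoxin-interacting protein, an arrestin family member that restrains glucose uptake and rises when glucose metabolites accumulate. The gene (chromosome 3, 96557957 to 96561883, plus strand, mm10) was at 531.6 TPM in replicate 1 and 723.9 TPM in replicate 2, from 35533 and 46667 fragments. The coding forms were close between the libraries. Txnip-202 was at 222.1 and 220.45 TPM with deposited bounds of 212 to 229 and 210 to 229 TPM, and Txnip-201 was at 128 and 132 TPM. The non-coding forms summed to 181.2 and 371.1 TPM. Among them the retained-intron form Txnip-205, of 424 nt, was at 113.8 and 236.3 TPM and the processed form Txnip-204 at 33.35 and 98.4 TPM. Coding forms held 65.9% of the TPM in replicate 1 and 48.7% in replicate 2. By fragments the coding forms held 95.6% and 91.0%. Summed over coding forms the level was 350.4 and 352.8 TPM, still the highest of the 9 genes. The antisense gene Gm15441, the only annotated gene whose exons overlap those of a member, had 24 and 18 fragments. The libraries were strand-specific, but no source used here says whether counting used the strand.

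Txnip stood above the gene of the protein it binds, thioredoxin, with Txn1 at 142.85 and 129.7 TPM and the mitochondrial Txn2 at 151.0 and 159.8 TPM. It was 41.8 and 58.2 times above its arrestin relative Arrdc4, at 12.7 and 12.4 TPM. Mlxipl, which encodes the glucose-sensing factor ChREBP, was at 67.5 and 65.0 TPM. None of the 9 genes of this list was over 2-fold apart, beside 7.77% of all genes with enough counts. The Txnip promoter is shown for 2 kinds of letters. It holds the FOXO motif GTAAACA, found in 3.65% of windows, at 121 bases before the start. It also holds a pair of CACGAG with 5 bases between them, the arrangement of a carbohydrate response element, from 85 bases before the start. That pair was looked for after the sequence had been seen, and of 32851 windows 1 held it, the window of Txnip. Single CACGAG, on either strand, was in 6.47%. Capitals mark both motifs in chr3:96557807-96557956 (plus strand, mm10):
Txnip upstream: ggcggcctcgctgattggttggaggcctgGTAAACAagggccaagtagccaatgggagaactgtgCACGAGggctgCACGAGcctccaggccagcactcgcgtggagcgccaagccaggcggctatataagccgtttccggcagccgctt

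**Figure D3:**
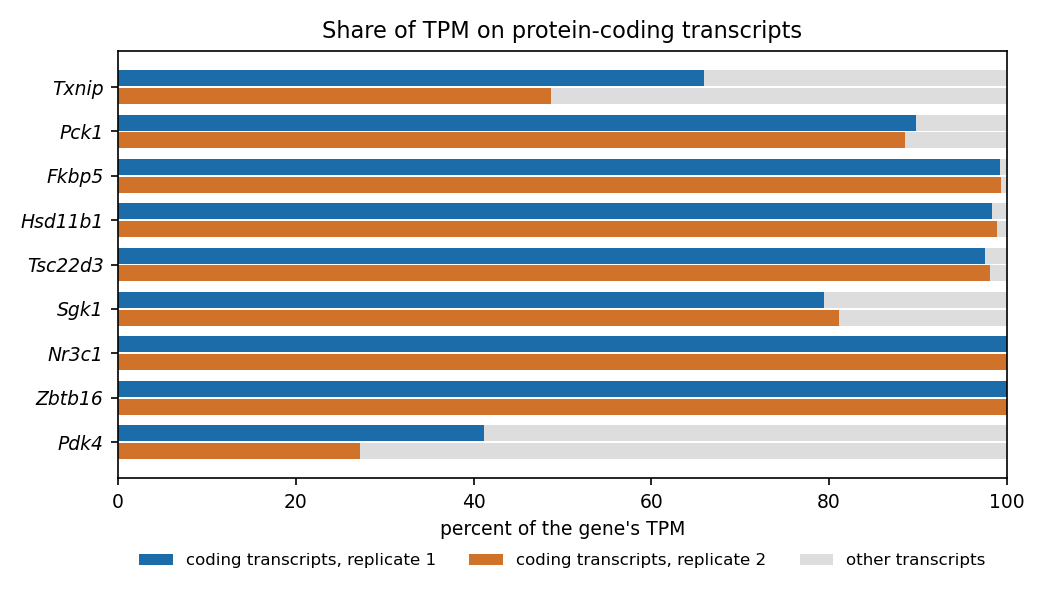
Percent of each gene's TPM on transcripts annotated as protein-coding (coloured) and on other transcripts (grey), for replicate 1 and replicate 2. Pdk4 holds 41.2% and 27.3% on coding transcripts and Txnip 65.9% and 48.7%, while Nr3c1 and Zbtb16 hold 100% in both. By fragments the coding shares are 92.1% and 86.6% for Pdk4 and 95.6% and 91.0% for Txnip.

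Promoter windows were at hand for 7 of the 9 genes, 14 windows in all, and not for Nr3c1 and Zbtb16. No window covered the annotated start of Tsc22d3-201 or of Hsd11b1-203, the largest forms of their genes. The bases just before those starts were thus not searched. Besides those shown, the Hsd11b1 window, whose start lies 269 nt from that of Hsd11b1-201, held the FOXO motif 138 bases before its start, and the Fkbp5 window, at 70.7% GC against a median of 52.7%, held the E-box CACGTG, which was in 7.15% of windows. The window of Sgk1-202 held the E-box too, 246 bases before the start. The farthest upstream Tsc22d3 and Sgk1 windows each held 1 half-site TGTTCT, the window of Sgk1-203 held 1 half-site and TATAAA 28 bases before the start, and none of these searched letters was found in the Pdk4 window. The form TGACGTCA (1.79% of windows) and the C/EBP motif TTGCGCAA (0.183%) were in no member window.

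Across all genes, over 2-fold apart means a TPM ratio past 2 in either direction at a mean of at least 20 expected fragments. This rule took in 1315 of 16920 genes (7.77%), 418 higher in replicate 2 (2.47%) and 897 higher in replicate 1 (5.3%). Of the 9 genes, 2 met it: Hsd11b1, higher in replicate 2, and Pck1, higher in replicate 1. A count of 2 among 9 is too small to set against those shares, and nothing is read from it. The other members lay closer together. By the size of the ratio Pck1 was farther apart than 97.2% of the 16920 genes and Hsd11b1 than 93.0%.

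The scaling matters for the direction of small differences. The median gene was lower in replicate 2 by 0.14 on the log2 TPM scale and level at 0.01 after TMM, a scaling on counts, under which the 2-fold rule took 526 genes higher in replicate 2 and 533 higher in replicate 1. By TMM, the log2 ratio of replicate 2 over replicate 1 was -1.34 for Pck1, -0.45 for Tsc22d3, -0.40 for Fkbp5 and -0.33 for Zbtb16. It was 1.09 for Hsd11b1, 0.54 for Sgk1, 0.53 for Pdk4, 0.24 for Txnip and 0.19 for Nr3c1. No member changed sign between TPM and TMM.

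**Figure D4:**
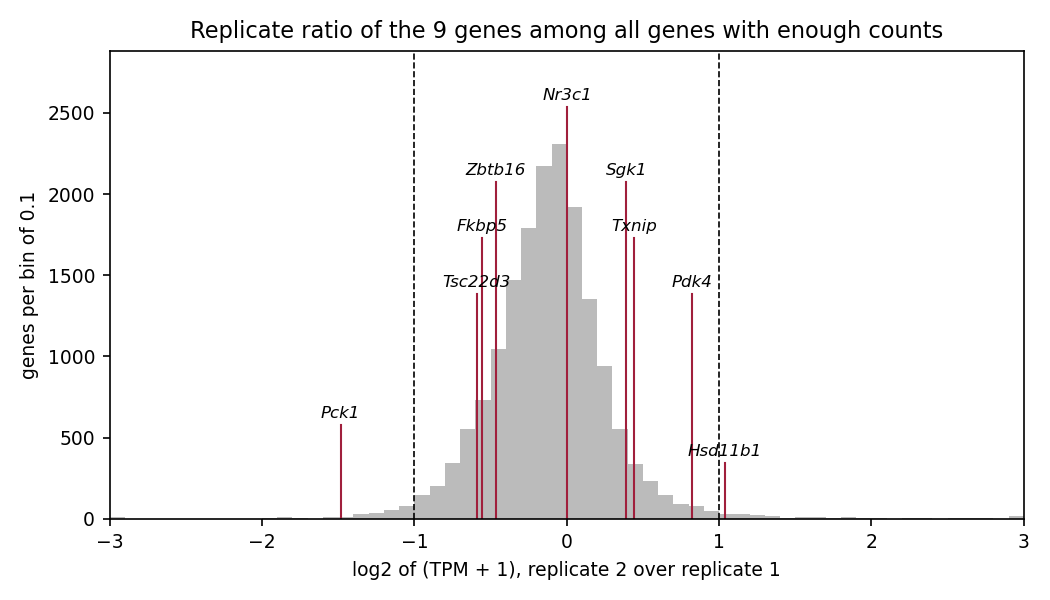
Histogram of the log2 ratio of (TPM + 1), replicate 2 over replicate 1, for the 16920 genes past the count minimum of 20, with the 9 genes as vertical lines of arbitrary height; ratios beyond 3 sit in the end bins and the dashed lines mark 2-fold on this scale. Pck1 at -1.48 and Hsd11b1 at 1.04 lie outside the dashed lines.

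**Figure D5:**
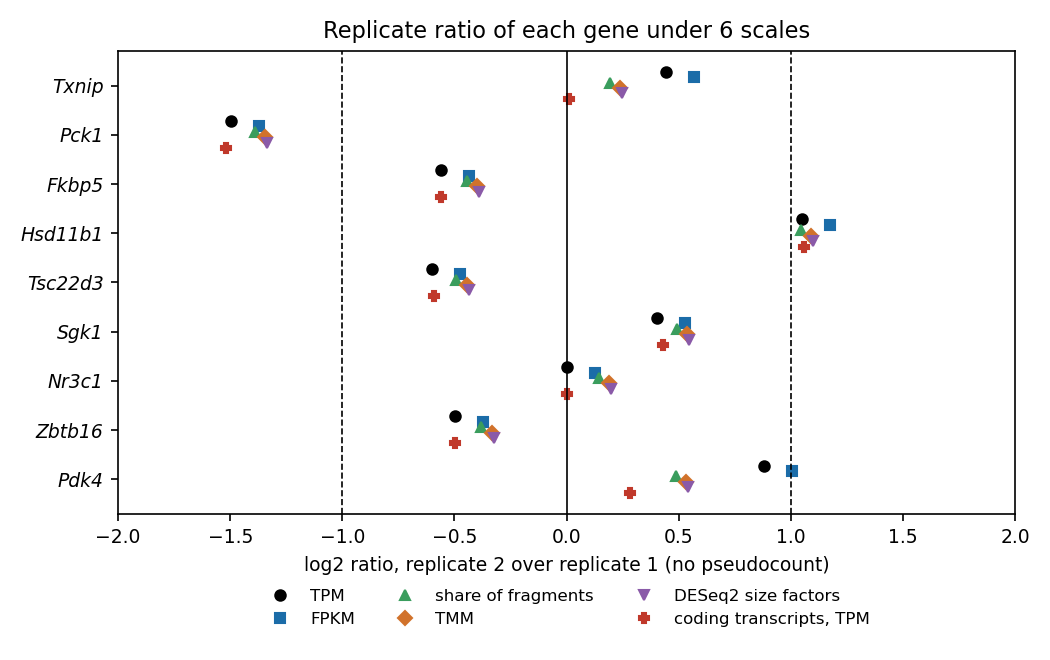
Log2 ratio of replicate 2 over replicate 1 for each gene (no pseudocount) on 6 scales, with dashed lines at 2-fold. Pck1 and Hsd11b1 stay beyond the lines on each scale, and Pdk4 and Txnip move most, from 1.84 and 1.36 times by TPM to 1.22 and 1.01 times on coding transcripts.

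Of 20 other genes that glucocorticoids induce 19 were expressed, and the median gene stood at 50.0 and 45.8 TPM. The metallothionein gene Mt1 led at 720.7 and 858.7 TPM, with Angptl4, an inhibitor of lipoprotein lipase that also rises in fasting, at 137.2 and 304.5 TPM and the transcription factor gene Cebpb at 172.7 and 124.6 TPM. In this list 3 genes were over 2-fold apart, beside 7.77% of all genes with enough counts. Angptl4 was 2.22 times higher in replicate 2 and the cell cycle inhibitor gene Cdkn1a 2.42 times, at 31.3 and 75.6 TPM. Tat, a liver enzyme gene and textbook target, was at 0.77 and 0.26 TPM on 62 and 26 fragments. The median log2 ratio of the list was -0.24 by TPM and -0.094 by TMM, beside -0.12 and 0.01 over all genes. By TMM 14 of the 20 were higher in replicate 1, beside 8387 of all 16920 genes with enough counts.

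Of 18 other fasting genes 16 were expressed, with a median log2 ratio of -0.16 by TPM and -0.067 by TMM. The lipase genes led, Pnpla2 with 948.5 and 816.3 TPM and Lipe with 501.5 and 473.6 TPM. G6pc, the glucose-releasing enzyme of liver, was at 0.66 and 0.25 TPM on 54 and 25 fragments and was the only gene of the list over 2-fold apart, and the muscle ubiquitin ligase gene Trim63 was at 0.91 and 0.79 TPM. The receptor and chaperone list had a median log2 ratio of -0.26 by TMM. By TMM 13 of its 16 genes were higher in replicate 1, beside 8387 of all 16920 genes with enough counts. By TPM 2 of the 16 were over 2-fold apart: Crebbp, a histone acetyltransferase gene, at 21.1 and 7.08 TPM, and Ptges3, the p23 chaperone gene, at 33.6 and 16.2 TPM. None of the 19 paralogues of the members was over 2-fold apart, and 18 were expressed, among the highest Tsc22d4, a relative of Tsc22d3, with 185.9 and 106.4 TPM. Over all 100 listed genes that are not members, 7 of the 96 with enough counts were over 2-fold apart (7.29%), beside 7.77% of all genes.

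Several tissue markers differed between the libraries alongside the members. Of all 16920 genes with enough counts, 10962 were lower in replicate 2 by TPM and 8387 by TMM. Of 12 epididymis markers 10 were lower in replicate 2, with a median log2 ratio of -0.48 by TMM, with Lcn8 at 7811 and 3137 TPM. The 10 fat cell markers were mixed, with 7 higher in replicate 2 by TMM at a median log2 ratio of 0.18, but 5 by TPM at a median of 0.02. Cfd, the adipsin gene and the most abundant of them, was at 6724 and 3717 TPM, while Lep, the leptin gene, was at 92.1 and 574.8 TPM. Set against the summed fat cell markers, Pck1 came to 1.35% and 0.513% and Hsd11b1 to 0.429% and 0.952%, ratios of 2.63 towards replicate 1 and 2.22 towards replicate 2. Cfd was the largest part of the fat cell sums of 15618 and 14589 TPM, and was itself 1.81 times higher in replicate 1. All ratios against this sum therefore depend on that 1 gene, and they were not computed without it. Whether Hsd11b1 stays over 2-fold against the other fat cell markers is thus not shown. The ratios of Pck1 and Hsd11b1 also depended on the marker set. Pck1 was 1.97 times higher in replicate 1 against the epididymis sum and 1.85 times against the spermatid sum, and over 2 times against the other 5 sums. Hsd11b1 was 2.97 and 3.17 times higher in replicate 2 against the epididymis and spermatid sums. Against the macrophage, endothelial, stromal and skeletal muscle sums it was 1.73, 1.81, 1.80 and 1.43 times higher, under 2-fold. Set against the summed epididymis markers, Fkbp5 came to 0.350% and 0.341%, Tsc22d3 to 0.236% and 0.223% and Zbtb16 to 0.0424% and 0.0432%, so these 3 genes kept a nearly constant proportion to them. The same 3 kept it to the spermatid sum too, Fkbp5 with 27.85% and 28.9%, Tsc22d3 with 18.8% and 18.9% and Zbtb16 with 3.38% and 3.66%. They did not keep it to the other 5 sums, against which each was higher in replicate 1. The ratios were 1.38, 1.41 and 1.32 against the fat cell sum and 2.14, 2.20 and 2.05 against the skeletal muscle sum. Any gene with a TPM ratio near that of a marker sum keeps its proportion to it. Single epididymis markers ran from 0.40 times (Lcn8) to 1.75 times (Crisp1), replicate 2 over replicate 1. What part tissue makeup had in these ratios and proportions was not tested. All 8 skeletal muscle markers were higher in replicate 2, 5 of them over 2-fold, beside 2.47% of all genes, though 4 were under 1 TPM in a library. Their sums of 97.6 and 141.7 TPM were mostly Acta1, at 68.4 and 83.6 TPM, and so understate the ratios of the other markers such as Myh1, at 0.11 and 1.63 TPM. All 6 spermatid markers were lower in replicate 2, with sums of 530.7 and 347.3 TPM. Of 12 immediate-early genes, which respond to handling and stress within minutes, 9 were lower in replicate 2, as were most genes by TPM. Of the 12, 3 were over 2-fold apart by TPM, beside 7.77% of all genes: Fos at 13.6 and 6.23 TPM, Egr1 at 18.8 and 9.24 TPM and Ier2 at 19.35 and 6.52 TPM. By TMM, Fos and Egr1 were 1.85 and 1.83 times higher in replicate 1, under 2-fold, and Ier2 was 2.67 times higher.

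For each member the protein-coding gene nearest in level was found by the distance of log2(TPM + 1) over the 2 libraries. Pck1 lay nearest to Col1a1, a collagen gene at 210.1 and 81.5 TPM, at a distance of 0.12. Hsd11b1 lay nearest to Unc119 at 0.11 and Txnip to Tpi1 at 0.11, and no protein-coding gene came within 0.1 of these 3 members. Fkbp5 was nearest to Rnf181 and Tsc22d3 to Rasd1, each at 0.026, Zbtb16 to Ebna1bp2 at 0.017, Sgk1 to Ccdc130 at 0.013, Pdk4 to Fam83a at 0.058 and Nr3c1 to Plekhg3 at 0.0086. Nr3c1 had 107 protein-coding genes within 0.1. Over 2 libraries such nearness describes levels only.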

How the data were processed

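RNA of 2 libraries was read in strand-specific pairs of 76 nt, per the labels. The authors deposited expected counts, TPM, FPKM and posterior means per gene and transcript, with the percent of the gene's TPM on each transcript. The deposited interval bounds were taken as scores, because the headers give no level for them. The accompanying notes name mm10 and GENCODE M4; no source used here gives the aligner or the quantifier. Rows without an Ensembl identifier held 2.28% and 1.83% of counts and were left out. Positions and transcript types are from GENCODE M21 on mm10; 49 of 52 member transcripts had the same length there. Promoters are from RefSeq (GRCm38.p6).

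Ratios used TPM, and log2(TPM + 1), which understates differences of low genes, where stated. Median log2 ratios of lists by TPM, and the -0.12 over all genes beside them, also used log2(TPM + 1). The median gene at 0.14 lower in replicate 2 was found without the added 1. All these medians were over genes at a mean of 1 TPM or more. TMM (edgeR 4.0.16) and DESeq2 1.42.0 size factors scaled rounded expected counts; no model was fitted. Intervals are exact Clopper-Pearson (scipy 1.17.1). The 2-fold rule was tested on simulated data with known changes and counting error only, by share of fragments. That test therefore says nothing of the spread between samples. A floor of 3 fragments came to 0.0402 and 0.0323 TPM for a 2 kb transcript. Expected counts of 7 of 9 members were whole within 0.005. Named were all members, the top 3 of each pathway list, those over 2-fold apart and textbook genes under 1 TPM, except 1 gene that is not reported here; markers and others were chosen after their values were seen. Members and lists were chosen with earlier results of these data known. Junction and contig tables on mm9 were not used here.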

Additional observations from a re-analysis of the deposited data

How the results depend on the processing

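All 9 members were at 1 TPM or more in both libraries under thresholds of 0.1 and 5 TPM, posterior mean TPM, FPKM and in each replicate alone (9 to 9 genes). Pck1 and Hsd11b1 were over 2-fold apart by posterior mean TPM, FPKM, TMM, DESeq2 size factors, share of fragments and coding transcripts, and at each count minimum, but not against every marker sum (1.85 and 1.43 times at the least); FPKM and TPM centred on the median gene, the latter chosen after seeing the data, added Pdk4 (3 genes), and a 1.5-fold rule gave 4. Over all genes the count of 1315 became 456 with a pseudocount of 1 in the rule (chosen after seeing the data), 632 at a mean count of 100, 5824 with no count filter and 3938 at 1.5-fold. Of 20 transcripts at 10 percent or more, 13 reached 20 percent. Of 100 other pathway genes, 92 were expressed, 97 at 0.1 TPM and 82 at 5 TPM, and 92 to 92 with each replicate left out; 7 over 2-fold apart became 6 by TMM, which left out Ptges3. The ratios of Txnip and Pdk4 were smaller on coding transcripts alone. No paired analysis was possible because there is 1 group. At the gene level the lowest member count was 570 fragments, but single transcripts rested on fewer, such as Pdk4-202 with 44.9 and 122.6.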
